A study of Homo sapiens with 8 samples.

Results

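PKD1L1 is a gene of the polycystin family. It was examined by RNA-seq in J82, a human bladder cancer cell line, sorted into side population (SP) and non-side population (NSP) cells, together with the other polycystin genes and with PKD1L1-AS1, HUS1 and SUN3, which lie at the PKD1L1 locus on chromosome 7. PKD1L1 was selected because it was among the genes with the largest fold changes between SP and NSP cells in these same libraries, so its SP and NSP values are described below without a test. The other genes were chosen by family or by position. Of the 10 genes, 9 were matched by identifier among the 57820 counted genes, and PKD1L3 was not analysed here. All 9 had at least 1 count, and 4 of them (PKD1L1, PKD1, PKD2 and PKD2L2) passed the filter on low counts and were among the 9309 genes tested.

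J82 cells were grown in DMEM with 10% FBS, stained with the DNA dye Hoechst and separated by flow cytometry. SP cells are those that keep little dye, and NSP cells are the remainder. Both groups come from the same line, and the labels name no drug and no introduced allele for either. There were 4 libraries of each group, numbered 1 to 4, and nothing states that the numbers stand for separate cultures, so p-values measure the spread between these libraries. In bulk samples, a higher value in more cells and a higher value per cell cannot be told apart.

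Polycystins are large membrane proteins of the primary cilium and the endoplasmic reticulum. The polycystin-1 group (PKD1, PKD1L1, PKD1L2, PKD1L3) has a long extracellular part and many membrane spans, and the polycystin-2 group (PKD2, PKD2L1, PKD2L2) forms ion channels that pass calcium. Mutations in PKD1 and PKD2 cause autosomal dominant polycystic kidney disease, and PKD1L1 acts with PKD2 in setting the left-right axis of the embryo.

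SP libraries ranged in depth from 1431823 to 1697218 counts, and NSP libraries from 1489033 to 2073526. These totals are far below the raw reads per sample that the paper states, and the cause was not tested. Values are given as raw counts and as CPM, counts scaled by the TMM-normalized total over the tested genes (the usual CPM unit). In this scale 3 counts, the upper limit that a count of 0 allows, correspond to 1.48 to 2.21 CPM, depending on the library, and this covers counting error only. Between SP and NSP cells 341 of the 9309 tested genes were called (3.66%, edgeR's quasi-likelihood test, Benjamini-Hochberg adjusted p under 0.05 and a fold change over 1.3), 152 higher and 189 lower in SP cells. With the replicate number as a block the share was 12.9%. The CPM values of the groups did not overlap for 9.75% of the tested genes. The median log2 fold change over all tested genes was 0.0148. The J82 label was compared with fixed markers. KRT8, a keratin of simple epithelia, had 4166 to 7986 counts in every library and VIM, a filament of mesenchymal cells, had 272 to 1402. The keratin genes KRT7, KRT18 and KRT19 had 211 to 1444, 492 to 889 and 11 to 107. The epithelial adhesion genes EPCAM and CDH1 had 3 and 24 counts in all. Urothelial genes were mixed: UPK2 had 9 to 49 counts per library, whereas KRT20 and UPK3A had 0. In all libraries together PPARG, GATA3 and UPK1B had 57, 34 and 13 counts, and KRT5 and UPK1A had 1 each.

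PKD1L1 (ENSG00000158683.3, GRCh37 chr7:47779800-47988063, minus strand, 60 merged exon intervals) was higher in SP cells. The SP libraries held 79, 112, 64 and 71 counts for replicates 1 to 4, and the NSP libraries 19, 30, 12 and 11. In CPM these were 56.9, 75.1, 34.7 and 52.3 in SP cells and 10.1, 14.8, 7.65 and 7.61 in NSP cells. The lowest SP library was thus above the highest NSP library, and the groups did not overlap. Replicate 2 was the highest library of each group. The mean was 54.7 ± 16.6 CPM for SP and 10.1 ± 3.39 CPM for NSP (SD, n = 4 each). The log2 fold change was 2.40 with a standard error of 0.28, which is 5.28-fold, and ranked 5 among all tested genes. Within the replicate numbers 1 to 4 the log2 ratios of CPM + 1 were 2.38, 2.27, 2.04 and 2.63. With any 1 library left out the log2 fold change stayed between 2.21 and 2.66.

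**Figure D1:**
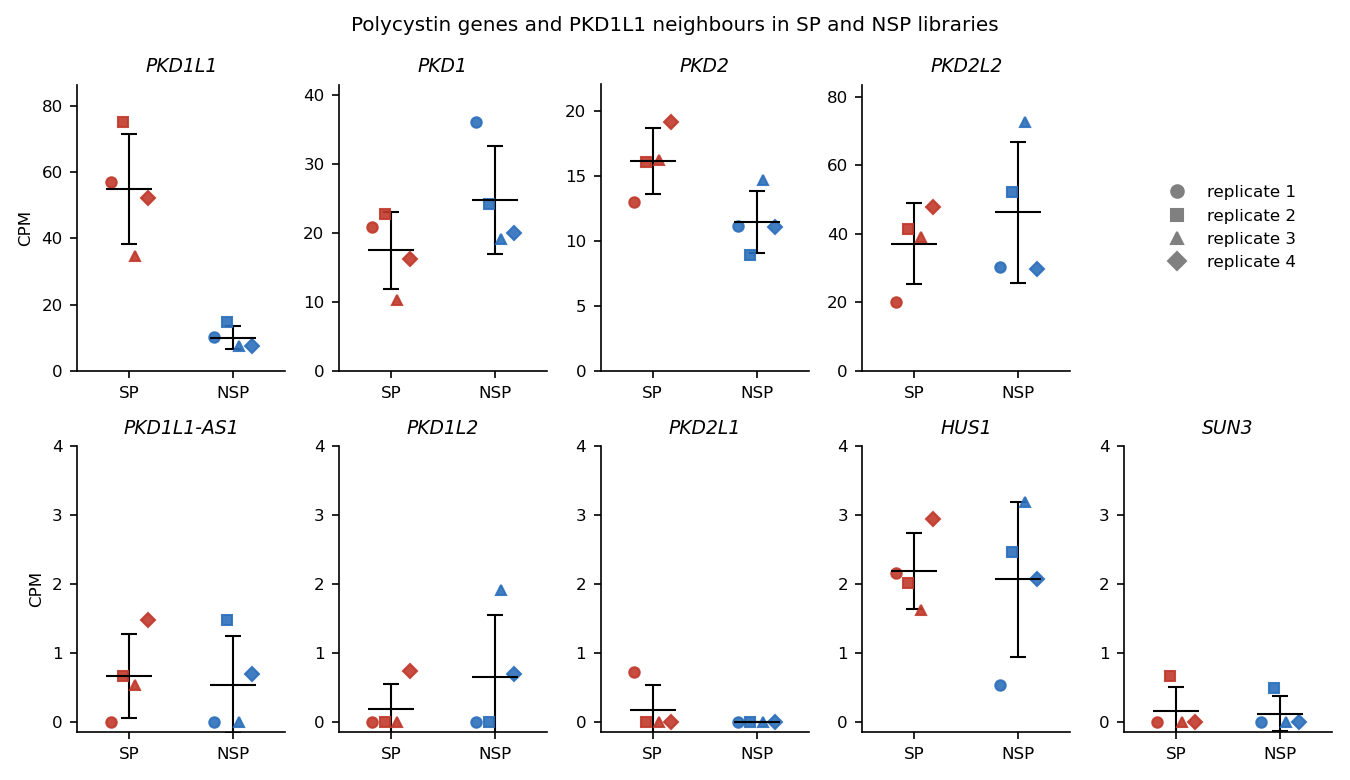
CPM of the 9 matched genes in the 4 SP (red) and 4 NSP (blue) libraries, with the symbol shape giving the replicate number and black lines the mean and SD; the axes of the upper row differ between genes and those of the lower row are shared. PKD1L1, selected on this contrast, lies between 34.7 and 75.1 CPM in SP cells and between 7.61 and 14.8 in NSP cells. The groups of the other 8 genes overlap, and over all tested genes 9.75% do not overlap.

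PKD1L1 exons are mostly sequence found nowhere else. No gene of the opposite strand has an exon that crosses one of them, and of the 8611 windows of 50 bases, the read length, within its exons, 98.82% occur at 1 place in the genome. The exons of PKD1L1-AS1 lie inside the PKD1L1 span but do not touch its exons. The exon lengths and interval numbers are from an annotation later than the one used for counting. Overlapping exons of all transcripts of a gene were merged, so an interval number is not the exon number of a transcript.

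PKD1 (ENSG00000008710.13, GRCh37 chr16:2138709-2185899, minus strand, 39 merged exon intervals), which encodes polycystin-1, is the founding member of the same group as PKD1L1. It had 29, 34, 19 and 22 counts in SP replicates 1 to 4 and 68, 49, 30 and 29 in NSP replicates 1 to 4. The CPM values were 20.9, 22.8, 10.3 and 16.2 against 36.2, 24.2, 19.1 and 20.1. Every SP library was below the NSP library of the same number, but the groups overlapped, since SP replicates 1 and 2 were above NSP replicates 3 and 4. The mean was 17.5 ± 5.57 CPM for SP and 24.9 ± 7.84 for NSP (SD, n = 4 each). The log2 fold change of -0.53 (standard error 0.28, 95% interval -1.09 to 0.03) did not pass the test (edgeR adjusted p = 0.377). The 95% intervals of log2 fold changes, here and below, are normal approximations from the standard error. They are somewhat narrower than the test implies.

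PKD1 counts are uncertain in a way that PKD1L1 counts are not, because PKD1 has near-identical copies on chromosome 16. Of 16623 windows of 50 bases in its exons, 67.95% occur at 1 place, and 31.32% have an exact copy in at least 1 of the 6 annotated pseudogenes PKD1P1 to PKD1P6. In all, 1068 windows were shared with the 6 of them. The following window is shown as an example of a read that cannot be assigned to PKD1 alone. It is PKD1 exon sequence at GRCh37 chr16:2169330-2169379, minus strand, 5′ to 3′, and it occurs 7 times in the genome, once in PKD1 and once in each pseudogene.
PKD1 window: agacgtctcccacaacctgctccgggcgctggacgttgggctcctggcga
PKD1P3 and PKD1P6 had 2 and 11 counts in all libraries together, and the other 4 pseudogenes had 0. How reads with several places were counted is not given in the sources used here.

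PKD1 also carries exons of other genes across its own. PKD1-AS1, a noncoding RNA on the plus strand, has 286 bases across PKD1 exons, which is 41.4% of its length. It had 340 counts per kb of exon over the 8 libraries, against 15.1 per kb for PKD1, a ratio of 22.5. The coding exon of PKD1 at GRCh37 chr16:2141424-2141598 is printed because it lies across an exon of PKD1-AS1. It is given on the minus strand, 5′ to 3′, with the 162 bases that are shared with the PKD1-AS1 exon in capitals.
PKD1 exon: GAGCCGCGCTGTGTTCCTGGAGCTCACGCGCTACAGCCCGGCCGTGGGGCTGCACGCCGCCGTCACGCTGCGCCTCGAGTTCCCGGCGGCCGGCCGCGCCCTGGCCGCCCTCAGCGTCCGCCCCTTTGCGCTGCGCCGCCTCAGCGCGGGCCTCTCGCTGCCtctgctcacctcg
PKD1-AS1 had 30, 38, 8 and 19 counts in SP replicates 1 to 4 and 45, 49, 23 and 23 in NSP replicates 1 to 4. A log2 fold change of -0.31 was obtained (standard error 0.38, adjusted p = 0.75), which became 0.038 when SP replicate 3, with the fewest counts, was left out. TSC2, the tuberous sclerosis gene that lies tail to tail with PKD1, overlaps PKD1 exons by 784 bases. It had 36.3 counts per kb and a log2 fold change of 0.05 (standard error 0.16, adjusted p = 0.911). The noncoding genes ENSG00000261240 and ENSG00000260447 overlap PKD1 exons by 294 and 72 bases and had 22 counts and 1 count. The strand setting of the counting is not stated. Across the series, in 88.2% of 595 pairs of a noncoding and a coding gene on opposite strands, the noncoding gene had more counts per kb. Only pairs with at least 50% of exon length in the overlap and at least 100 counts were taken. PKD1-AS1, with 41.4% of its length in the overlap, was under that share. The part of the opposite strand in the PKD1 values was not tested.

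**Figure D2:**
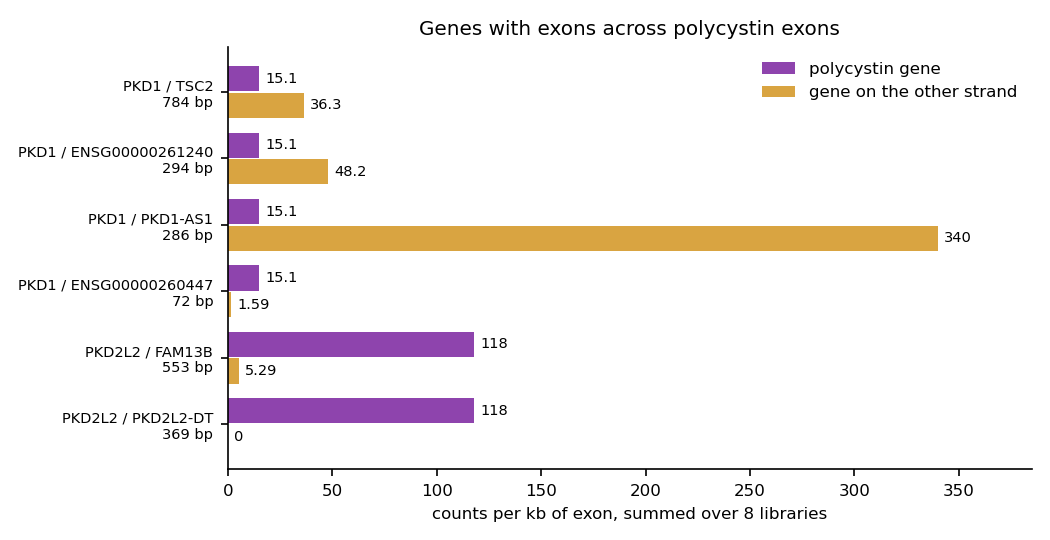
Counts per kb of exon, summed over the 8 libraries, of PKD1 and PKD2L2 (purple) and of each gene on the other strand whose exons cross theirs (yellow), with the bases of overlap under each pair. PKD1-AS1 has 340 counts per kb against 15.1 for PKD1, and PKD2L2 has 118 against 5.29 for FAM13B.

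PKD2 (ENSG00000118762.3, GRCh37 chr4:88928787-88998929, plus strand, 14 merged exon intervals) encodes polycystin-2, the channel subunit. It had 18, 24, 30 and 26 counts in SP replicates 1 to 4 and 21, 18, 23 and 16 in NSP replicates 1 to 4. The CPM values were 12.97, 16.1, 16.2 and 19.1 in SP cells and 11.2, 8.89, 14.7 and 11.1 in NSP cells. Each SP library was above the NSP library of its number, and the groups overlapped through SP replicate 1 and NSP replicate 3. The mean was 16.1 ± 2.52 CPM against 11.4 ± 2.39 (SD, n = 4 each). The log2 fold change of 0.50 (standard error 0.26, 95% interval -0.01 to 1.01) did not pass the test (adjusted p = 0.355). The PKD2 values have neither limit of the PKD1 values: all of its 4845 windows of 50 bases occur at 1 place, and no exon of the opposite strand crosses it. The unstated strand setting of the counting applies to every gene, PKD2 and PKD1L1 included. ABCG2, a drug efflux transporter that is the next gene after PKD2, had 4, 3, 4 and 0 counts in SP cells and 1, 0, 2 and 0 in NSP cells, too few for a test.

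PKD2L2 (ENSG00000078795.12, GRCh37 chr5:137223657-137278436, plus strand, 18 merged exon intervals) is a polycystin-2-like gene that is best known from the testis. It had 28, 62, 72 and 65 counts in SP replicates 1 to 4 and 57, 106, 114 and 43 in NSP replicates 1 to 4. In CPM the libraries held 20.2, 41.6, 39.0 and 47.9 in SP cells and 30.3, 52.4, 72.7 and 29.7 in NSP cells. The groups overlapped over most of their range, and number 4 ran against the other 3, with the SP library above the NSP library. The mean was 37.1 ± 11.9 CPM against 46.3 ± 20.5 (SD, n = 4 each), and the log2 fold change of -0.32 (standard error 0.30, 95% interval -0.90 to 0.27) did not pass the test (adjusted p = 0.658). Exons of FAM13B on the other strand cross 553 bases of PKD2L2. FAM13B had 36 counts in all, 5.29 per kb, whereas PKD2L2 had 547, or 118 per kb. PKD2L2-DT, which overlaps by 369 bases, had 0 counts. As for PKD1, the part of the opposite strand was not tested.

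Of the 3 tested genes other than PKD1L1, 0 were called in either direction by edgeR, 0 had an unadjusted p under 0.05, and DESeq2 and limma voom also called 0. Over all tested genes edgeR called 3.66%, so 0 of 3 is not read as a result about these genes.

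The remaining polycystin genes were close to the limit of detection. PKD1L2 (ENSG00000166473.12, GRCh37 chr16:81134480-81253975, minus strand) had 5 counts in all, 1 in SP replicate 4, 3 in NSP replicate 3 and 1 in NSP replicate 4. PKD2L1 (ENSG00000107593.15, GRCh37 chr10:102047906-102090021, minus strand), which encodes a cilium and taste cell channel, had 1 count, in SP replicate 1. Neither gene could be compared at this depth. PKDREJ, the family member of sperm and egg contact, had 30 counts, with 1 to 5 in each library, and was not tested.

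The family was also summed over PKD1, PKD2, PKD1L1, PKD1L2, PKD2L1 and PKD2L2. PKD1L1, the selected gene, held 51.0%, 48.3%, 34.6% and 38.4% of the family's counts in SP replicates 1 to 4, and 11.5%, 14.8%, 6.59% and 11.0% in NSP replicates 1 to 4. Between 155 and 232 family counts stood behind each SP share, and between 100 and 203 behind each NSP share. The Wilson 95% interval, which covers counting error only, was 28.1% to 41.7% for the lowest SP share and 10.6% to 20.3% for the highest NSP share, and no comparison is drawn from it, since PKD1L1 was selected on this contrast. Without PKD1L1 the summed level was 71.2 ± 13.5 CPM for SP and 83.3 ± 19.5 CPM for NSP (SD, n = 4 each), and with it 126.0 ± 24.8 and 93.3 ± 19.9. In both cases the groups overlapped.

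**Figure D3:**
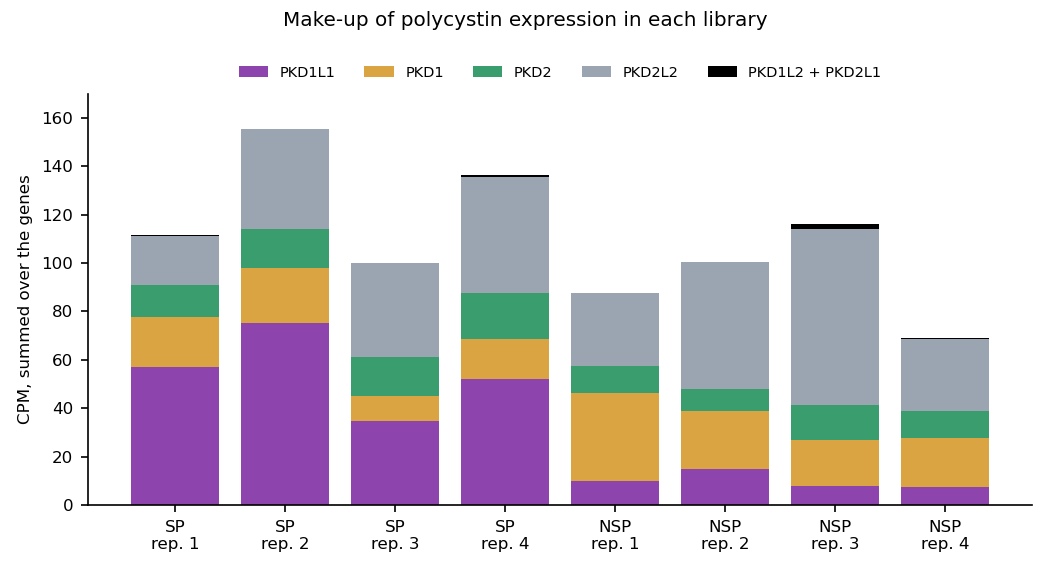
CPM of PKD1L1, PKD1, PKD2, PKD2L2 and of PKD1L2 and PKD2L1 together, stacked for each of the 4 SP and 4 NSP libraries. PKD1L1 is the largest or second largest share in every SP library (34.6% to 51.0% of the family's counts) and at most 14.8% in the NSP libraries.

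Levels of different genes were compared per kb of exon. The PKD1 and PKD2L2 levels have the limits described above, from exons of other genes across both and from the copies of PKD1. Their places in the orders below are therefore uncertain. Among SP libraries PKD2L2 was highest, at 7.98 ± 2.56 CPM per kb, followed by PKD1L1 at 4.74 ± 1.44, PKD2 at 2.91 ± 0.456 and PKD1 at 0.946 ± 0.301 (SD, n = 4 each). The SP ranges of PKD2L2 and PKD1L1 overlapped, as did those of PKD1L1 and PKD2, while those of PKD2 and PKD1 did not. Among NSP libraries the order was PKD2L2 at 9.95 ± 4.41, PKD2 at 2.07 ± 0.432, PKD1 at 1.34 ± 0.423 and PKD1L1 at 0.871 ± 0.294 CPM per kb. Here PKD2L2 did not overlap the others, and PKD2 overlapped PKD1, as did PKD1 with PKD1L1. PKD1L1 thus stood at rank 2 of the 9 genes in SP cells and at rank 4 in NSP cells. The 3530 coding genes tested without an exon across the other strand had a median of 4.27 CPM per kb over all libraries, with quartiles of 1.98 and 10.3. The SP level of PKD1L1 was near that median and its NSP level was below the lower quartile. Dividing by the longest transcript left these 4 genes in the same order in both groups.

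Most genes of the PKD1L1 locus had too few counts for a comparison. Within 500 kb there were 11 other annotated genes, 9 with at least 1 count and 2 that could be tested, TNS3 and UPP1, neither called. PKD1L1-AS1 (ENSG00000136275.6, GRCh37 chr7:47834889-47859445, plus strand, 4 merged exon intervals) had 0, 1, 1 and 2 counts in SP cells and 0, 3, 0 and 1 in NSP cells. HUS1 (ENSG00000136273.7, GRCh37 chr7:48002885-48019212, minus strand), a subunit of the 9-1-1 DNA damage clamp whose near end lies 14.8 kb from PKD1L1, had 3, 3, 3 and 4 counts against 1, 5, 5 and 3. SUN3 (ENSG00000164744.8, GRCh37 chr7:48026745-48068716, minus strand), a nuclear envelope gene of the testis, had 1 count in SP replicate 2 and 1 in NSP replicate 2. All 3 overlapped between the groups and were under the filter on low counts.

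TNS3, tensin 3, a focal adhesion protein, starts 157.6 kb beyond the end of PKD1L1 and is transcribed from the same strand. It had 69.9, 113.9, 146.2 and 83.2 CPM in SP cells and 53.2, 77.5, 81.6 and 62.2 in NSP cells. Each SP library was above the NSP library of its number, but the groups overlapped. The difference was 0.60 on the log2 scale (standard error 0.22, adjusted p = 0.175), and with the replicate block it was 0.57 and was called (adjusted p = 0.0038). UPP1, uridine phosphorylase, 140.2 kb on the other side, had 42, 44, 48 and 25 counts in SP cells and 87, 59, 32 and 49 in NSP cells. With a log2 fold change of -0.32 it was not called (standard error 0.25, adjusted p = 0.582). The pseudogene ENSG00000225507, 8.3 kb from PKD1L1, had 41 counts, and C7orf57 had 15. The lincRNA genes LINC01447 and LINC02902 had 4 and 5 counts, and LINC00525 and ABCA13 had 0.

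**Figure D4:**
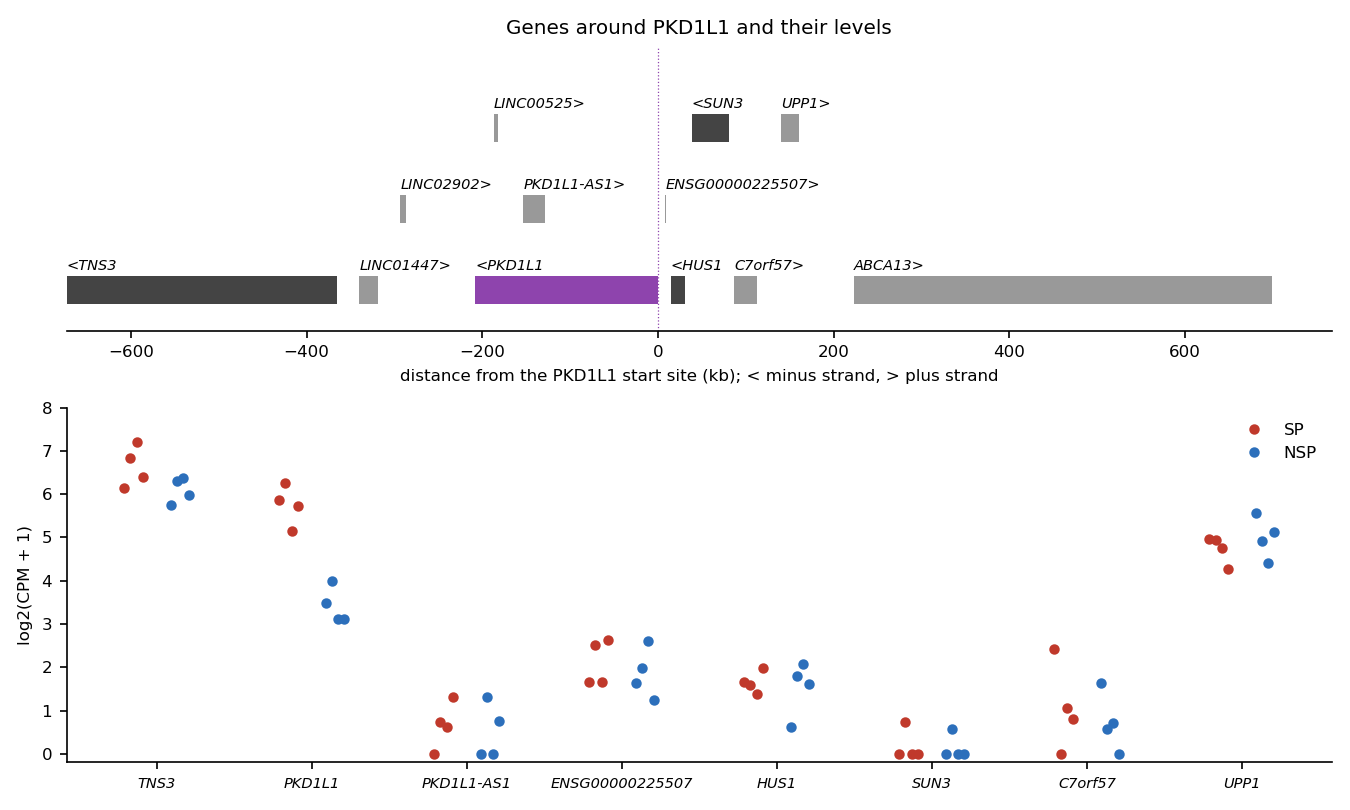
Upper panel, genes within 500 kb of PKD1L1 by distance in kb from its start site, with the strand shown by the arrow beside each name; lower panel, log2(CPM + 1) in the 4 SP (red) and 4 NSP (blue) libraries for the genes with at least 10 counts and for the 3 neighbours of interest, ordered by position. The red and blue points do not overlap for PKD1L1, which was selected on this contrast, and overlap for the others. Of these others only TNS3 and UPP1 had enough counts to be tested, and over all tested genes 9.75% do not overlap.

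The genes whose pattern over the 8 libraries was most like that of PKD1L1 were NTN4, FOXC1, CYBA, PENK-AS1 and TIGD5, with a Pearson correlation of log2(CPM + 1) of 0.988, 0.979, 0.972, 0.971 and 0.971. All 8 libraries share the contrast between SP and NSP cells, which the correlation contains, and no p is given. NTN4 is a secreted netrin of basement membranes and FOXC1 a forkhead transcription factor. NTN4 had a mean of 57.1 ± 9.11 CPM for SP and 21.0 ± 3.65 for NSP, and FOXC1 78.5 ± 27.5 and 7.54 ± 2.86 (SD, n = 4 each). CYBA, a subunit of the phagocyte oxidase, had a log2 fold change of 0.54 (adjusted p = 0.0569, and called with the block at 0.00187), smaller than the 2.40 of PKD1L1, so the measure compares the pattern and not the size. Within the 4 SP libraries alone the correlation was 0.99 for NTN4, 0.838 for FOXC1, 0.982 for CYBA, 0.809 for PENK-AS1 and 0.605 for TIGD5. Within the 4 NSP libraries it was 0.746, 0.645, 0.828, 0.484 and 0.995 in the same order. These genes were picked by their correlation over the same 8 libraries, and each within-group value rests on 4 points. The within-group values are therefore a description only.

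Genes that work with polycystins were counted by list, and each list's median is given beside the 0.0148 of all tested genes. The counts with an unadjusted p under 0.05 have no share over all tested genes beside them, so nothing is drawn from them. Of the genes for polycystin maturation and cystic disease, 16 of the 23 matched genes were tested, 0 were called by edgeR, DESeq2 or limma voom, and 1 had an unadjusted p under 0.05. The median log2 fold change was 0.13. GANAB and PRKCSH, the glucosidase II subunits needed to fold polycystin-1, had log2 fold changes of 0.12 (adjusted p = 0.745) and -0.02 (adjusted p = 0.974). BICC1, an RNA-binding protein that binds PKD2 and left-right transcripts, had 11.7 ± 5.48 CPM for SP and 4.54 ± 1.75 for NSP (SD, n = 4 each), with 5 to 26 counts per library. The difference of 1.396 on the log2 scale (standard error 0.397, adjusted p = 0.0666) was not called, and with the replicate block it was 1.34 and called (adjusted p = 0.00347). BICC1 is also in the list for left-right patterning, of which only 2 of 18 matched genes were tested, with DNAH11, an axonemal dynein, at -0.17 (adjusted p = 0.715). DNAH11 has an exon of the opposite strand across its own. The part of that strand in its 278 to 608 counts per library was not tested. The left-right signal genes DAND5 and NODAL had 3 counts and 1 count.

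Intraflagellar transport carries polycystins into cilia. Of 39 matched genes of this list 16 were tested, 0 were called by edgeR, DESeq2 or limma voom, 5 had an unadjusted p under 0.05, and the median was -0.01. With the replicate block, which called 12.9% of all tested genes, 2 of the 16 were higher and 1 was lower. The higher ones were IFT140 (log2 fold change 0.62, block adjusted p = 0.0224), a transport complex A subunit, and IFT172 (log2 fold change 1.53, block adjusted p = 0.00468), a transport complex B subunit with 1 to 13 counts per library. The lower one was BBIP1 (log2 fold change -0.68, block adjusted p = 0.00227), a BBSome subunit. The calcium list, the channels and pumps that act with polycystins, had 7 tested of 11 matched genes, 0 called by edgeR, DESeq2 or limma voom, 0 with an unadjusted p under 0.05 and a median of -0.17. ITPR3, an inositol trisphosphate receptor, was at -0.20 (adjusted p = 0.732), and ATP2A2, the calcium pump of the endoplasmic reticulum, at -0.02 (adjusted p = 0.962).

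Partners of the locus genes were counted in the same way. The 9-1-1 and ATR list, for HUS1, had 9 tested of 17 matched genes, 0 called by edgeR, DESeq2 or limma voom, 1 with an unadjusted p under 0.05, and a median of -0.11. RAD1, a clamp subunit, had 841 ± 470 CPM for SP and 457 ± 287 for NSP (SD, n = 4 each), with 265 to 1980 counts per library, and it was not called without the block (adjusted p = 0.324). With the replicate block it was called (log2 fold change 0.97, adjusted p = 2.36e-09), as was RFC5, a clamp loader subunit, lower at -0.41 (adjusted p = 0.0333). For SUN3, the list of nuclear envelope bridge and lamina genes had 10 tested of 16 matched, 0 called by edgeR, DESeq2 or limma voom, 1 with an unadjusted p under 0.05, and a median of 0.09. With the block LMNB2, a B-type lamin, was lower at -0.55 (adjusted p = 0.0023). Read against 3.66% called over all tested genes, none of these lists had a called gene in the fit without the block. With the block, against 12.9% over all tested genes, the calls were 1 of 16 in the maturation list, 3 of 16 in the transport list, 1 of 2 in the left-right list, 0 of 7 in the calcium list, 2 of 9 in the 9-1-1 list and 1 of 10 in the nuclear envelope list.

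Cell type markers were counted beside these lists, against the 3.66% called over all tested genes. Of the 6 tested genes of the epithelial and urothelial list, which also holds the mesenchymal gene VIM, 1 was called. KRT7, a keratin of simple epithelia, fell in SP cells (log2 fold change -1.35, standard error 0.22, adjusted p = 0.00342), from 659 ± 129 CPM in NSP cells to 258 ± 87.0 in SP cells (SD, n = 4 libraries per group). VIM, at a log2 fold change of -0.76 (adjusted p = 0.0784), was not called by edgeR and was called by DESeq2, with the block, with no count filter and when NSP replicate 4 was left out. The other 4 were not called, with log2 fold changes of -0.29 for KRT8 (adjusted p = 0.447), -0.11 for KRT18 (adjusted p = 0.798), -0.24 for KRT19 (adjusted p = 0.838) and 0.22 for UPK2 (adjusted p = 0.82). KRT7 and VIM, like IFT140, IFT172, BBIP1 and RFC5, have an exon of the opposite strand across their own, as do 58.5% of the annotated tested genes. BICC1, RAD1, LMNB2 and PDGFRB have none. The list's summed level, VIM included, was 3756 to 5156 CPM in SP cells and 5191 to 6873 CPM in NSP cells. KRT8, which was not called, was the largest part, at means of 3300 CPM in SP cells and 4020 in NSP cells. Of the 11 matched markers of other cell types, 5 were at 0 in all libraries, 2 were tested and 1 was called. LUM, a proteoglycan of connective tissue, was at 0.43 (adjusted p = 0.658). PDGFRB, a receptor of fibroblasts and pericytes, rose (log2 fold change 1.42, standard error 0.30, adjusted p = 0.0164). This list's summed level was 28.1 to 48.3 CPM in SP cells and 7.45 to 24.2 in NSP cells. The largest part of it was PDGFRB, at means of 30.6 CPM in SP cells and 11.4 in NSP cells. PDGFRB was not called without SP replicate 2 (log2 fold change 1.26, adjusted p = 0.0586). The blood cell, endothelial and hepatocyte markers PTPRC, CD3E, LYZ, VWF, CDH5 and ALB had at most 1 count each, and the fibroblast marker DCN had 0. The part of these markers in the PKD1L1 difference was not tested.

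**Figure D5:**
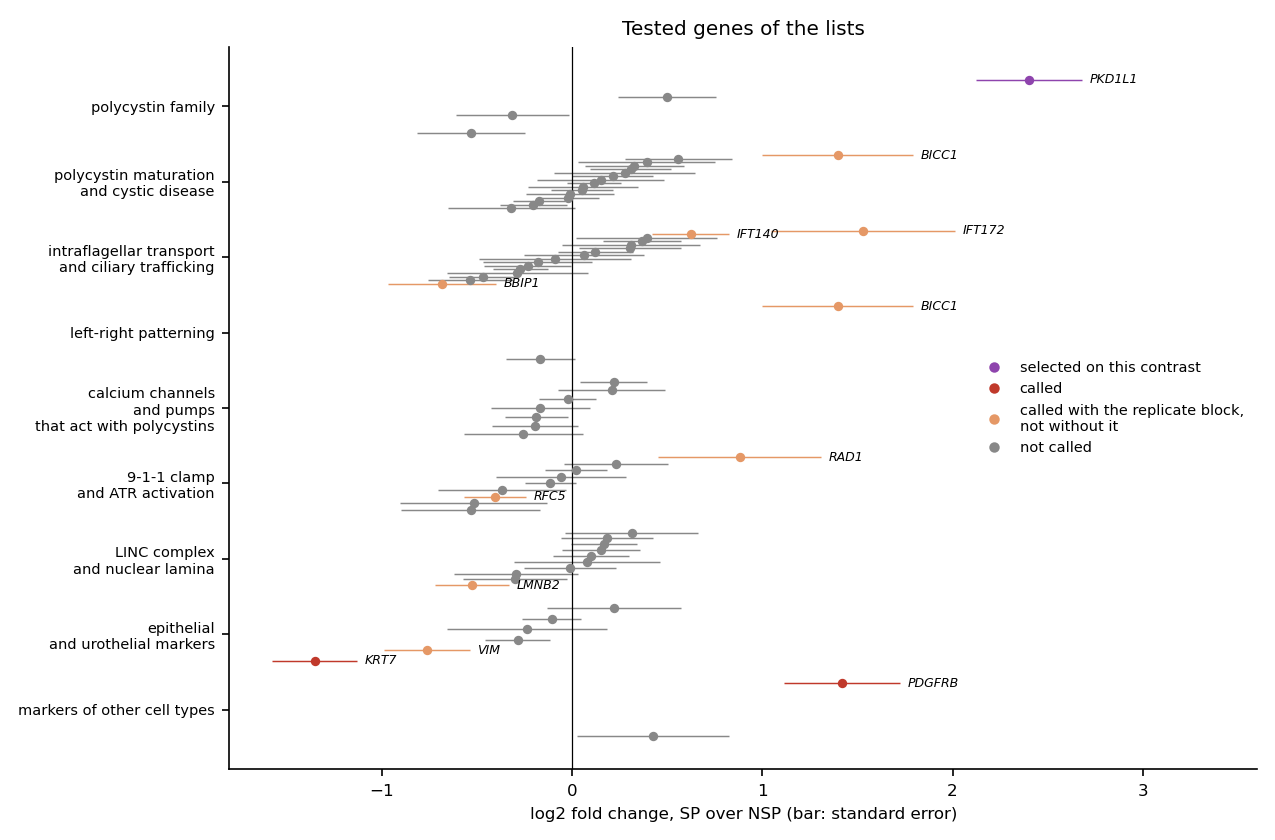
Log2 fold change of SP over NSP cells, with standard error, for each tested gene of the lists, where red genes were called, orange ones were called with the replicate block but not without it, and grey ones in neither fit. PDGFRB (1.42) and KRT7 (-1.35) are the called genes, and PKD1L1 (2.40), in purple, was selected on this contrast and is drawn without a call.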

How the data were processed

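RNA-seq of J82 SP and NSP cells used KAPA mRNA HyperPrep libraries and single-end reads of 50 bases. The authors aligned the reads to hg19 with STAR and counted them on gencode version 19 genes with featureCounts, and the deposited values are raw counts of 57820 genes. The counts were tested with edgeR 4.0.16 (R 4.3.3, TMM, filterByExpr at min.count 10 and min.total.count 15, glmQLFit, glmQLFTest), a procedure tested on simulated data. CPM use the counts on the tested genes (98.0% of all counts) times the TMM factor, a choice made after first values were seen. Genes were matched by identifier to GENCODE on GRCh37, the build of hg19 (96.1% found, the rest holding 4.06% of counts). Python 3.11.15 and scipy 1.17.1 were used for windows and intervals. Members, lists and named genes (the members, genes within 500 kb that could be tested or had at least 10 counts, genes across member exons, called list genes, the 5 most similar genes, ABCG2) were chosen with earlier results of these data known. The labels give the replicate numbers, and same-numbered libraries deviated together (correlations 0.38, 0.203, 0.322 and 0.321), and the libraries were therefore treated as pairs in the block. Replicates differed by more than sampling noise (chi-square per degree of freedom 5.61 to 13.5). Alternatives were DESeq2 1.42.0, limma voom (limma 3.58.1), other normalizations and filters, the replicate block and leaving out each library.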

Additional observations from a re-analysis of the deposited data

How the results depend on the processing

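The log2 fold changes of PKD1L1, PKD1, PKD2 and PKD2L2 kept their sign under every alternative run. For PKD1L1, selected on this contrast in these same libraries, this is a description only. The tested members other than PKD1L1 gave 0 calls in each run, the replicate block included, and nothing is drawn from so few genes. Without a filter on low counts 303 genes were higher and 381 lower in SP cells, and with the replicate block 548 and 652, against 152 and 189. Leaving out 1 library gave 69 to 164 higher and 89 to 181 lower. The lowest counts came without NSP replicate 2, and without NSP replicate 1 there were 93 higher, and without SP replicate 2 there were 91 higher and 110 lower. With no filter and with the block, 1 gene each was higher in the maturation, left-right and 9-1-1 lists and 1 lower in the transport list. The block also gave 2 higher transport genes, and 1 lower gene each in the 9-1-1 and nuclear envelope lists. The epithelial list had 2 lower genes, KRT7 and VIM, with DESeq2, with no filter and with the block. Leaving out 1 library gave 1 to 2 lower genes in the epithelial list and 0 to 1 higher transport genes (2 and 1 without NSP replicate 4). It also gave 0 to 1 higher markers of other cell types (0 without SP replicate 2). With 1 library left out PKD1-AS1 ranged from -0.624 (without SP replicate 2) to 0.038 (without SP replicate 3). TNS3 was called with the block (0.57), and PDGFRB was not without SP replicate 2 (1.26). The level of PKD2L2 per kb was 15.9 in SP and 19.8 in NSP cells by its longest transcript. The cause of these changes was not tested, apart from the fewer or more genes or libraries that an alternative holds. CPM over all counts, an alternative chosen after seeing the data, gave 910 genes without overlap against 908. Beside TNS3 and the list genes, the block added a call for CYBA (0.54, adjusted p = 0.0569 without and 0.00187 with it) and changed no other call of a named gene. Counts of 11 to 112 limit the precision of PKD1L1, and members with under 30 counts in all could not be compared.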

Other observations

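The ratio of PKD2 to PKD1 counts within a library was examined after the values were seen. It was 0.62, 0.71, 1.58 and 1.18 in SP replicates 1 to 4 and 0.31, 0.37, 0.77 and 0.55 in NSP replicates 1 to 4. Each SP library was above the NSP library of its number, by 0.94 to 1.1 on the log2 scale, and the groups overlapped. The difference of the mean log2 ratio was 1.02 (exact two-sided permutation test, p = 0.0857, n = 4 each, where the smallest possible is 0.0286). Within every number PKD2 was higher and PKD1 lower in SP cells, as given above, so the direction of the ratio in each pair was already fixed. The exact test of sign changes over the 4 pairs could therefore only give p = 0.125, the smallest it can give. Nothing is drawn from either test. Both counts are low, with 16 to 68 per gene and library, and the PKD1 counts have the limits of copies and of overlapping genes described above.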
